A study of Tupaia belangeri with 15 samples.

Results

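The transducin subunits, arrestins and opsin kinases that rods and cones use were followed across the cell classes of the tree shrew (TS) retina and across 3 age stages. The set was fixed by gene name and comprised GNAT1, GNAT2, GNB1, GNB3, GNGT1, GNGT2, SAG, ARR3, GRK1 and GRK7. Of these 10 symbols, 8 were named in the deposited count tables and 7 held counts, out of 83605 features in all. GNGT2 was listed at 0 in every library, as were 19165 of the features, CNGA1 among them, so its 0 was not read as absence of the RNA. GNB3 and GRK1 were not analysed here. The 7 genes with counts, described below, were GNAT1 (TSDBGID.16707), GNAT2 (TSDBGID.25058), GNB1 (TSDBGID.7867), GNGT1 (TSDBGID.22841), SAG (TSDBGID.4895), ARR3 (TSDBGID.19214) and GRK7 (TSDBGID.17215). Together they held 696548 of 467736966 counted molecules. Antisense features are listed beside GNAT1, GNB1 and SAG, and since the sources used here do not state the strand setting, reads of overlapping features may have been divided between them.

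In a photoreceptor, an opsin that has caught light activates transducin, a G protein made of an alpha, a beta and a gamma subunit, and transducin in turn switches on a phosphodiesterase that lowers cyclic GMP. The response ends when an opsin kinase phosphorylates the opsin, an arrestin binds to it, and the alpha subunit hydrolyses its GTP. Mammalian rods and cones are known to use separate genes for most of these steps. GNAT1, GNB1 and GNGT1 form rod transducin, with SAG as rod arrestin and GRK1 as rod kinase, whereas GNAT2, GNB3 and GNGT2 form cone transducin, with ARR3 as cone arrestin and GRK7 as cone kinase. GNB1 is also a widely used beta subunit outside photoreceptors, and SAG is known from cones of other mammals as well as from rods.

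Nuclei of 15 whole dissected, frozen retinas of TS (Tupaia belangeri), a diurnal mammal whose retina is dominated by cones, were profiled by droplet RNA sequencing from the polyA end, with 5 retinas each of the Infancy, Mature and Senile stage. Ages in months ran from 1.4 to 2.1 in infancy, from 24.96 to 36 in maturity and from 85.8 to 86.56 in senility, and no treatment was compared. Senile animals came from another institute than infant and mature animals, so stage and source cannot be told apart in any comparison with the senile stage. Since nuclei were sequenced, levels refer to RNA in the nucleus. P-values between stages set a difference against the spread between retinas, which was estimated partly from all features tested.

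The libraries held 13429873 to 58734300 unique molecular identifiers (UMIs, counted molecules) in 4269 to 9856 barcodes. Classes were rebuilt from the counts with 56 marker genes that included none of the 10 symbols, so none of them entered the naming here. The study itself had used SAG among its markers of both rods and S-cones, and GNAT2 among those of both L-cones and S-cones. It had listed ARR3 for cones in general and for L-cones, and GRK7 for L-cones, but neither for S-cones. Of 119765 nuclei that passed the study's limits on genes and mitochondrial UMIs, the gate named 14464 cones, 851 rods, 26782 bipolar cells (BCs), 1266 horizontal cells (HCs), 22846 amacrine cells (ACs), 5849 ganglion cells (RGCs), 6267 Müller cells, 1761 astrocytes and 617 microglia. Another 39062 nuclei stayed unnamed, 21972 of them because a mixture of 2 classes explained their markers better, which also served to remove doublets. Cones were split by opsin into 11504 L-cones, with OPN1LW and no OPN1SW, and 429 S-cones, with OPN1SW and no or fewer OPN1LW UMIs, and BCs into 8167 ON BCs and 9499 OFF BCs. Rods numbered from 0 in Senile 1 to 112 in Mature 3, so rod values cover 14 retinas, and S-cone values cover 14 retinas because Mature 5 had 2. The 7 rod markers with counts (CNGA1 was at 0) summed to 5374 to 7520.5 CPM in rods and to 91.7 to 229 CPM in L-cones, and the 7 cone markers, of which CNGA3 and CNGB3 were at 0, summed to 2062 to 2778 CPM in cones and to 23.1 to 299 CPM in rods. Markers that the study had named in these same retinas, kept out of the gate, followed the names here. Since they come from the same data, their values are a description and no independent check. CLUL1 and CADM1, for rods, stood at 11423 and 2421 CPM in rods against 19.9 and 41.1 CPM in cones. VAV3 and PLXDC2, for S-cones, stood at 239 and 800.3 CPM in S-cones against 7.01 and 29.5 CPM in L-cones. Markers of the retinal pigment epithelium, a tissue next to the photoreceptors, summed to 219.6 to 691 CPM in rods, 30.6 to 85.5 CPM in L-cones and 112 to 224 CPM in ACs, and their part in the rod values was not tested. Any pair of libraries shared 4 to 30 barcodes. Levels are given as UMIs of a gene per 1000000 UMIs (CPM) of the summed nuclei of a class in 1 retina, as mean ± SD over retinas. CPM is not corrected for gene length, so levels were compared between classes and not between genes.

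The alpha subunit of rod transducin, GNAT1, was a rod RNA. Its level in rods was 59.8 CPM in the lowest retina, 227 CPM in the median retina and 331 CPM in the highest (221 ± 85, n = 14), and 334 of 851 rods held at least 1 UMI of it. The range in rods did not overlap that in any other class of the 9. BCs followed at 8.68 ± 3.60 CPM and cones at 4.70 ± 1.08 CPM, whereas ACs, which are not known to use transducin, held 1.61 ± 0.663 CPM, and microglia held no UMI. In droplet data, RNA from broken cells gives every class some UMIs of abundant genes, and the AC level, with the BC level where that is not itself in question, is used below as the background. ACs were the class with the most nuclei close to the limit of the gate, 9887 of 22846 with a lead under double the required one. Under a stricter gate, with a log-likelihood lead of 10 in place of 4, their level was 1.33 CPM for GNAT1, 12.7 for SAG, 17.1 for GNAT2, 85.3 for ARR3 and 4.46 for GRK7.

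GNGT1, the gamma subunit of rod transducin, was found in rods and hardly elsewhere. Rods held 35.2 CPM in the lowest retina, 113 CPM in the median and 196 CPM in the highest (123 ± 50.4, n = 14). The next class, astrocytes, had a mean of 0.822 CPM that rested on 5 UMIs, and cones stood at 0.545 ± 0.393 CPM. The counts were small throughout, with 283 UMIs in all rods and 34 in all cones, and 213 of 851 rods (25.0%) held a UMI.

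The beta subunit GNB1 was highest in rods and present in every class. Rods held 587 CPM in the lowest retina, 883 CPM in the median and 1287 CPM in the highest (900.0 ± 226, n = 14), and rods were above microglia, the next class at 454 ± 144 CPM, in 14 of 14 retinas although the ranges overlapped. RGCs, Müller cells, astrocytes, ACs and HCs formed a middle group with means from 133 to 162 CPM, in which no neighbour in the order was higher in more than 10 of 15 retinas. BCs (52.6 ± 6.72 CPM) and cones (37.9 ± 6.26 CPM) were the lowest. HCs and BCs did not overlap, and BCs were above cones in 15 of 15 retinas. With BCs split, cones were above ON BCs (34.2 ± 5.36 CPM) in 10 of 15 retinas, with a median ratio of 1.16, so cones and ON BCs shared the low end of the order.

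**Figure D1:**
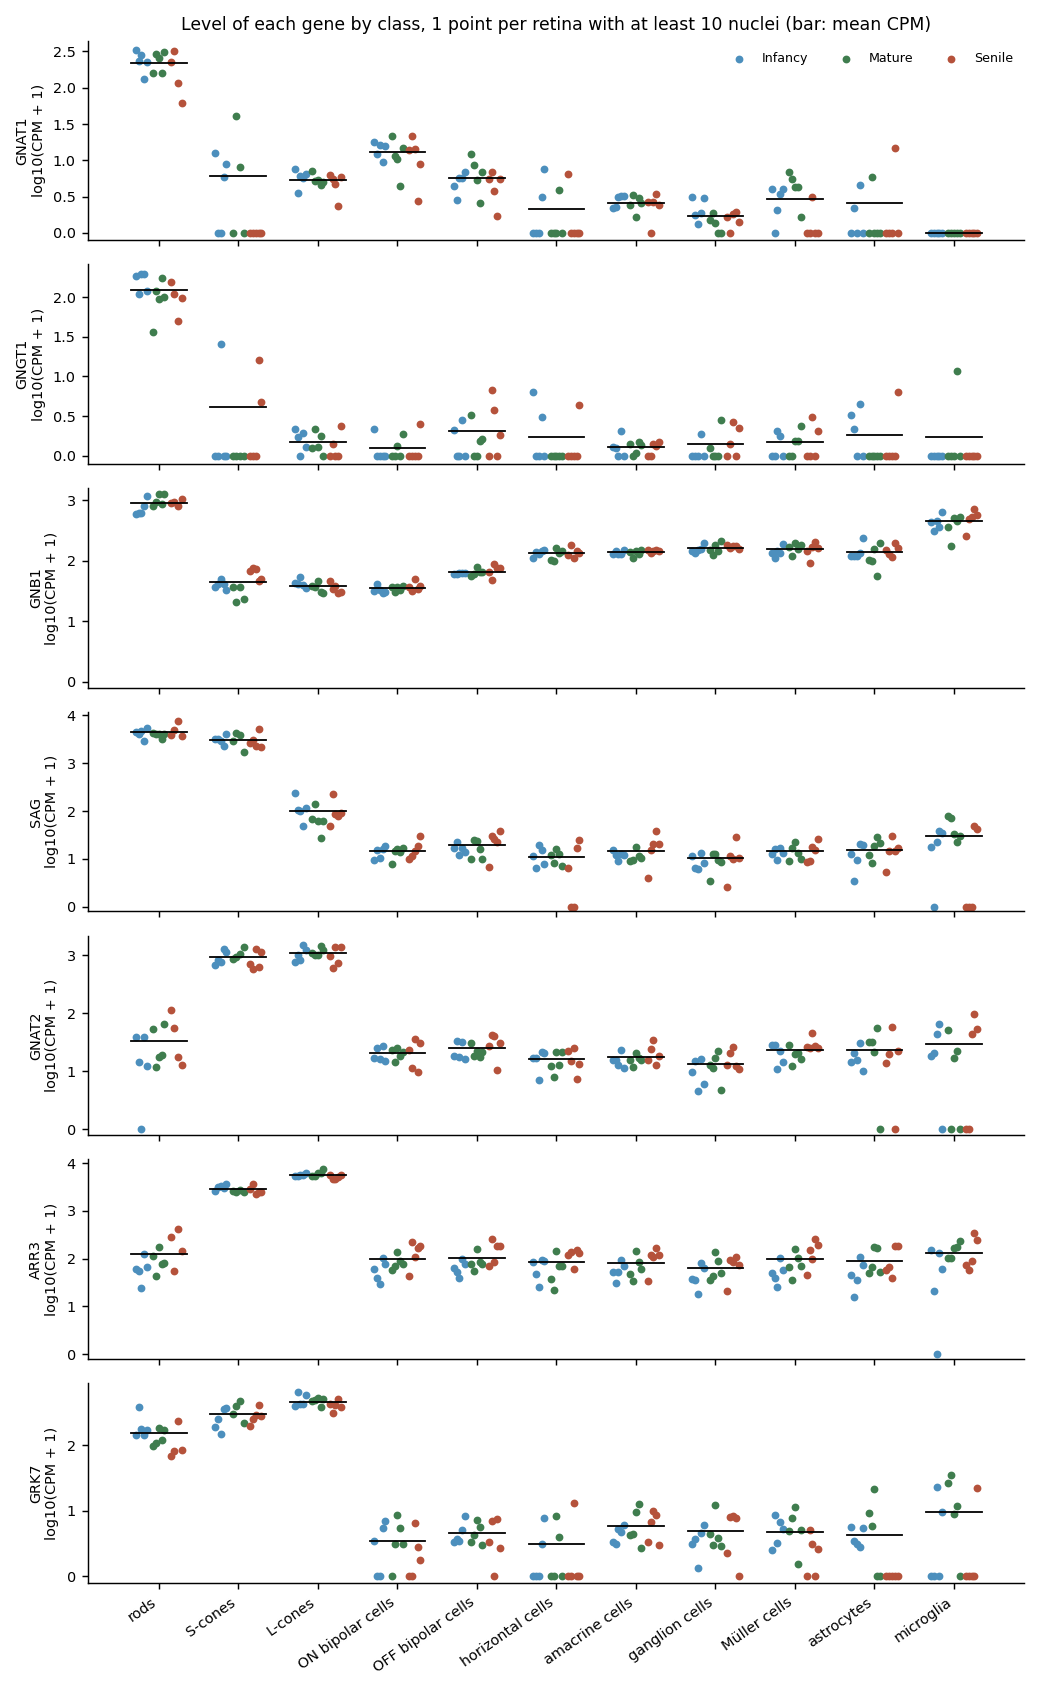
Level of each of the 7 genes in 11 classes, as log10 of CPM plus 1 on the vertical axis, with 1 point per retina that had at least 10 nuclei of the class (coloured by stage) and a bar at the mean CPM. GNAT1 and GNGT1 stand apart in rods, SAG in rods and S-cones, GNAT2, ARR3 and GRK7 in both cone types, and GRK7 in rods lies between cones and the remaining classes.

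GNAT2, the alpha subunit of cone transducin, was a cone RNA at 1060 ± 270.0 CPM (601 CPM in the lowest retina, 1017 in the median, 1482 in the highest, n = 15), and 12918 of 14464 cones held a UMI. The means of the other 8 classes lay between 12.5 ± 6.31 CPM in RGCs and 32.6 ± 29.9 CPM in rods. Rods exceeded ACs in 9 of 14 retinas and BCs in 6 of 14, so under this gate the rod level of GNAT2 could not be told apart from the background. Where nuclei with markers of a second class were kept, it was 56.5 CPM in rods, 56.3 in BCs and 25.9 in ACs, and in classes from clusters 101, 40.5 and 27.5 CPM. In Infancy 3 the rods held no UMI, which allows a level of up to 34.7 CPM at 3 UMIs. Within single nuclei, 25 of 851 rods held both alpha subunits, 309 held GNAT1 without GNAT2 and 27 held GNAT2 without GNAT1.

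SAG, the rod arrestin, was not confined to rods. Rods held 2885 CPM in the lowest retina, 4171 CPM in the median and 7560.4 CPM in the highest (4423 ± 1132, n = 14), and 848 of 851 rods held a UMI. S-cones held 1677 CPM in the lowest retina, 2986 CPM in the median and 5244 CPM in the highest (3133 ± 949, n = 14), and 423 of 429 S-cones held a UMI. L-cones held 26.7 CPM in the lowest retina, 86.2 CPM in the median and 243 CPM in the highest (99.9 ± 62.2, n = 15). The ranges of rods and S-cones overlapped, and S-cones exceeded rods in 1 of 13 retinas, with a median ratio of S-cones to rods of 0.704. The ranges of S-cones and L-cones did not overlap. L-cones in turn exceeded ACs (13.5 ± 7.94 CPM) in 15 of 15 retinas, with a median ratio of 8.17.

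The SAG of S-cones was spread over nearly all of these nuclei. S-cones had a median of 12 SAG UMIs per nucleus and rods a median of 9, and 265 of 429 S-cones and 400 of 851 rods held at least 10. In L-cones the distribution was different, since 9265 of 11504 nuclei held 0 and 85 held at least 10. After each nucleus was thinned to 1000 UMIs, which removes differences in depth and leaves out shallower nuclei, SAG was found in 96.3% of rods (exact binomial 95% interval 94.8 to 97.5, counting error only), 89.0% of S-cones (85.7 to 91.8), 6.19% of L-cones (5.75 to 6.65) and 1.20% of ACs (1.06 to 1.35). The unthinned shares were 99.6%, 98.6%, 19.5% and 4.79%, at median depths of 2137, 3804, 3451 and 3724 UMIs.

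Other rod genes were read in the same S-cones. CLUL1 and CADM1, which the study had named for rods in these same retinas, took no part in the gate. They stood at 16.9 and 71.8 CPM in S-cones, 20.1 and 38.2 CPM in L-cones, and 11423 and 2421 CPM in rods. SLC24A1, the rod exchanger, likewise outside the gate, stood at 34.9 CPM in S-cones and was higher there than in L-cones, as given below. The rod markers of the gate itself were low in S-cones by the choice of these nuclei, and their values are a description. The rod markers of the gate summed to 103 to 272 CPM in S-cones, near the 91.7 to 229 CPM of L-cones, and ROM1, a disc-rim protein also known from cones, made up most of this at 116 ± 41.4 CPM. NRL, the transcription factor that sets rod fate, stood at 0.273 CPM in S-cones and 397 CPM in rods, ESRRB at 0.178 and 962 CPM, and PDE6B, a rod phosphodiesterase subunit, at 4.50 and 1058 CPM. In the 210 S-cones without any UMI of a rod marker, SAG stood at 3154 CPM over the pooled nuclei. The S-cones also held cone arrestin: 422 of 429 (98.4%) had UMIs of both SAG and ARR3, against 2235 of 11504 L-cones (19.4%) and 196 of 851 rods (23.0%). Cones with neither opsin, 2432 nuclei at a lower median depth of 2304.5 UMIs, held 389 CPM of SAG over the pooled nuclei, and the 99 cones with both opsins that did not count as S-cones held 1147 CPM.

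**Figure D2:**
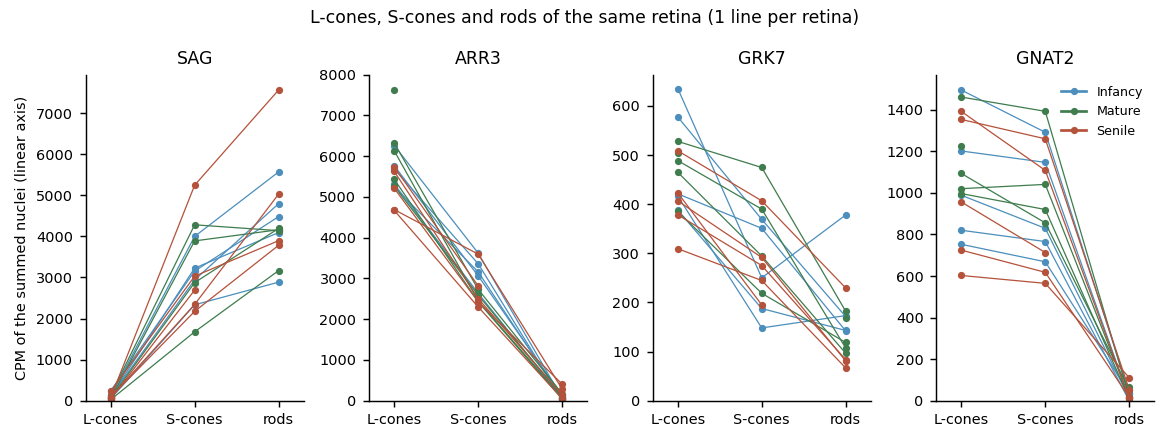
SAG, ARR3, GRK7 and GNAT2 in L-cones, S-cones and rods of the same retina, in CPM of the summed nuclei on linear axes that start at 0, with 1 line per retina coloured by stage. SAG steps up from L-cones to S-cones in 14 of 14 retinas, ARR3 and GRK7 step down in 14 of 14, and GNAT2 is at most 111 CPM in rods.

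ARR3, the cone arrestin, was a cone RNA in nearly every cone nucleus. Cones held 4448 CPM in the lowest retina, 5353 CPM in the median and 7516 CPM in the highest (5517 ± 739, n = 15), and 14341 of 14464 cones held a UMI. S-cones held 2302 to 3621 CPM (2836 ± 448, n = 14), below the range of L-cones, which ran from 4669 to 7623 CPM. Outside cones, the means of the other 8 classes ran from 63.7 CPM in RGCs to 129 CPM in microglia, with overlapping ranges. Rods were among them at 122 ± 108 CPM, above ACs in 10 of 14 retinas and above BCs in 6 of 14. After thinning, ARR3 was found in 9.38% of rods (7.44 to 11.6), 9.06% of ON BCs (8.43 to 9.72) and 7.38% of ACs (7.04 to 7.72), which places the ARR3 of rods near that of these classes. The rod level depended on how nuclei were named. It was 297 CPM where nuclei with markers of a second class were kept (289 in BCs, 133 in ACs) and 529 CPM in classes from clusters (198 in BCs, 140.0 in ACs).

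GRK7, the cone opsin kinase, was above the background in rods as well as in cones. Cones held 319 CPM in the lowest retina, 416 CPM in the median and 620 CPM in the highest (445 ± 82.5, n = 15). Rods held 66.8 CPM in the lowest retina, 143 CPM in the median and 378 CPM in the highest (153 ± 79.6, n = 14), whereas the means of the other 7 classes ran from 2.07 to 8.64 CPM. The ranges of rods and ACs did not overlap, and rods were above ACs in 14 of 14 retinas, with a median ratio of 33.2. The rod mean stayed between 143 and 159 CPM under the other ways of naming or weighting nuclei. After thinning, GRK7 was found in 34.3% of cones (33.5 to 35.1), 14.3% of rods (12 to 17) and 0.501% of ACs (0.413 to 0.601). GRK7 and ARR3 also stood in another ratio in rods than elsewhere, with a median ratio of GRK7 to ARR3 UMIs over retinas of 0.0743 in cones, 0.0678 in ACs and 1.51 in rods. The rod values rest on 359 GRK7 UMIs in 272 of 851 rods, with 3 UMIs in Senile 2, the lowest retina.

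**Figure D3:**
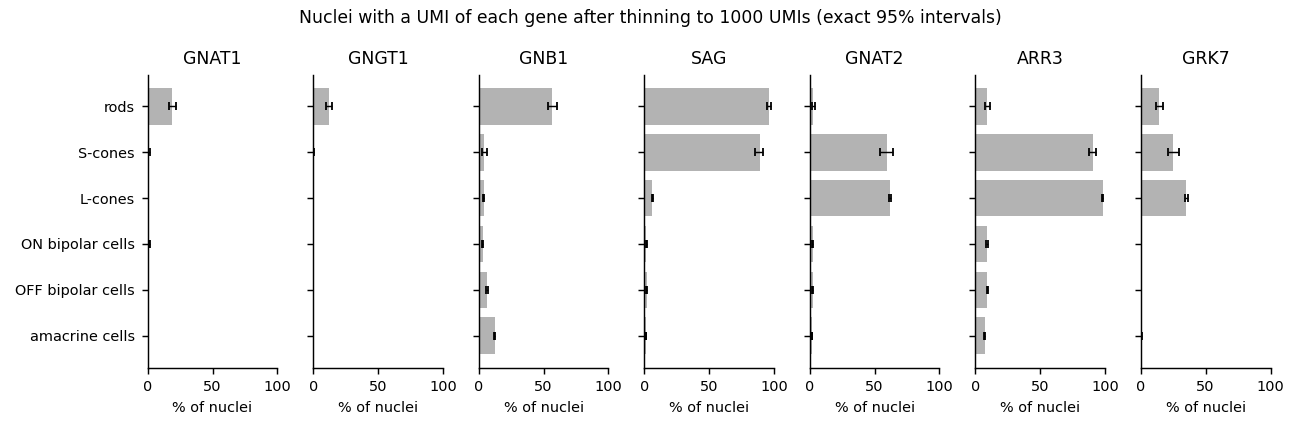
Share of nuclei, in percent, with at least 1 UMI of each of the 7 genes after every nucleus was thinned to 1000 UMIs, for rods, S-cones, L-cones, ON and OFF BCs and ACs. Bars start at 0 and whiskers are exact binomial 95% intervals for counting error, and GRK7 shows a rod bar at 14.3% while GNAT2 and ARR3 in rods stay at 2.79% and 9.38%.

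Rods and cones of the same retina were then compared with edgeR's quasi-likelihood test in 14 retinas, with the retina as a block and Benjamini-Hochberg adjustment over 12896 features. All 7 genes passed an adjusted p of 0.05, 4 higher and 3 lower in rods, in a comparison in which 38.0% of all features passed (14.9% higher, 23.0% lower). The log2 difference, rods minus cones, was 7.27 ± 0.245 (SE) for GNGT1, 5.18 ± 0.160 for GNAT1, 4.30 ± 0.117 for GNB1 and 3.90 ± 0.0980 for SAG, each higher in rods in 14 of 14 retinas without overlap. It was −5.95 ± 0.151 for ARR3, −5.56 ± 0.168 for GNAT2 and −1.82 ± 0.111 for GRK7, each lower in 14 of 14 retinas. The largest of the 7 adjusted p-values was that of GRK7, at 1.45e-23 by edgeR, and GRK7 was the single gene of the 7 whose rod and cone ranges overlapped. Cones held 3.53-fold the GRK7 of rods on the fitted scale, against 61.7-fold for ARR3 and 47.3-fold for GNAT2 under this gate. Over the alternatives the log2 difference ran from −6.17 to −3.78 for ARR3 and from −5.90 to −3.72 for GNAT2. For GRK7 it ran from −2.04 to −1.72. The median difference of all features was −0.10 on the log2 scale.

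S-cones and L-cones of the same retina differed in 4 of the 7 genes, where 16.4% of 13835 features passed the same test (4.76% higher and 11.7% lower in S-cones). SAG was higher in S-cones by 4.83 ± 0.0823 on the log2 scale, a 28.4-fold difference, in 14 of 14 retinas (edgeR adjusted p = 5.69e-199, and at most 1.06e-16 under the alternatives tried). The cone genes were lower: ARR3 by −1.25 ± 0.0571 (2.38-fold, 14 of 14 retinas), GRK7 by −0.82 ± 0.0833 (1.77-fold, 14 of 14) and GNAT2 by −0.43 ± 0.0660 (1.35-fold, 13 of 14). The GNAT2 ranges of both cone types largely overlapped, at 941 ± 268 CPM in S-cones and 1061 ± 286 CPM in L-cones of the same 14 retinas. The 3 remaining genes, the rod transducin subunits, did not pass. GNB1 had a difference of −0.06 (95% interval −0.41 to 0.30) and GNAT1 of −0.20 (−1.17 to 0.78), while the interval for GNGT1, at 3 UMIs in S-cones, ran from −0.88 to 2.80. A gain of GNAT1 or GNGT1 in S-cones was thus not detectable at this depth, and for GNB1 the interval ended at 0.30. Rod arrestin, in contrast, was there in nearly every nucleus. The median difference of all features was −0.15.

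ON BCs, which read the photoreceptor signal through a G protein cascade of their own, were compared with OFF BCs, which use ionotropic receptors. Of the 7 genes, 5 had enough counts to be tested (GNGT1 and GRK7 did not). Of these, 2 passed, 1 in each direction, where 41.8% of 13208 features did (21.0% higher and 20.9% lower in ON BCs). GNAT1 stood at 12 ± 5.38 CPM in ON BCs and 4.64 ± 2.61 CPM in OFF BCs, higher in ON BCs in 15 of 15 retinas, with a log2 difference of 1.16 ± 0.152 (edgeR adjusted p = 2.44e-07). The counts behind this were 254 UMIs in 8167 ON BCs and 115 in 9499 OFF BCs. ON BCs exceeded ACs in 14 of 15 retinas, with a median ratio of 7.44 in the 14 retinas whose ACs held a UMI. OFF BCs exceeded ACs in 13 of 15 retinas (median ratio 2.70) and L-cones in 14 of 15 (2.42), so this was not particular to ON BCs. The ratio of GNAT1 to SAG UMIs had a median over retinas of 0.0566 in rods, 0.173 in ACs, 0.214 in OFF BCs and 0.836 in ON BCs. GNB1 went the other way, at 34.2 ± 5.36 CPM in ON BCs and 64.6 ± 9.78 CPM in OFF BCs, lower in ON BCs in 15 of 15 retinas (log2 difference −1.03 ± 0.0587, edgeR adjusted p = 1.01e-14). SAG (−0.24), ARR3 (−0.13) and GNAT2 (−0.15), whose BC levels are near those of ACs, did not pass. When nuclei with markers of a second class were kept, 6 genes passed in place of 2.

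**Figure D4:**
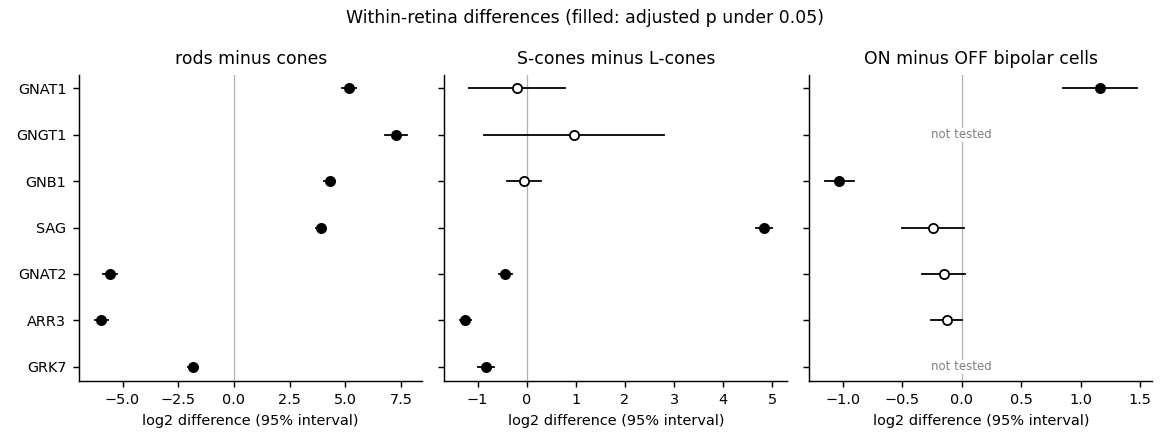
Log2 difference between classes of the same retina for each of the 7 genes, with 95% intervals, for rods minus cones, S-cones minus L-cones and ON minus OFF BCs (each panel has its own horizontal scale). Filled points have an adjusted p under 0.05, and SAG is the single filled point above 0 in the S-cone panel, at 4.83.

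Proteins that handle these genes' products, together with transcription factors of photoreceptors, were examined as a list of 16 partners. Of these, 15 were named in the files and 2 were at 0. Of 13 partners tested between rods and cones, 5 were higher and 5 lower in rods (median log2 difference 0.06), where 38.0% of all features passed. Among them, NRL and NR2E3 helped to define rods and are no result. RIC8B, a chaperone of some G protein alpha subunits, was higher in rods by 2.83 ± 0.152 (136 against 16.2 CPM). RORB, a transcription factor of photoreceptor development, was higher by 1.06 ± 0.0933 and RGS9, which speeds GTP hydrolysis by transducin, by 0.47 ± 0.0865. Its anchor RGS9BP (−1.39 ± 0.149) and its obligate partner GNB5 (−0.61 ± 0.112) were lower in rods, and so were UNC119, which carries lipid-modified transducin alpha (−0.52), RCVRN, the calcium sensor that restrains opsin kinases (−0.67), and THRB, the thyroid hormone receptor of L-cones (−3.23). Of 10 other phototransduction genes tested, 4 were higher and 6 lower in rods (median −2.17). Of these, 3 had taken no part in defining rods, cones or their types: SLC24A1, the sodium, calcium and potassium exchanger known from rods, was higher by 6.18 (387 against 5.06 CPM), SLC24A2, the exchanger known from cones, was lower by −5.81 (59.2 against 3292 CPM), and GUCY2D, the guanylate cyclase that restores cyclic GMP, was lower by −0.59 (149 against 181 CPM).

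Between S-cones and L-cones, none of 11 partners tested was higher and 7 were lower in S-cones by edgeR (median −0.39, where the median of all features was −0.15 and 16.4% passed). THRB was lower by −4.26 ± 0.118, at 62.1 against 928 CPM. RGS9BP (−0.78), RCVRN (−0.73), RGS9 (−0.54), GNB5 (−0.47), UNC119 (−0.39) and ARL3, which releases the cargo of UNC119 (−0.39), followed, and GNAT2, ARR3 and GRK7 had differed in the same direction. Of 10 other phototransduction genes tested, 2 were higher and 4 lower in S-cones. The opsins themselves had defined the types, and of the rest PDE6C (−0.82), PDE6H (−0.61) and SLC24A2 (−0.74), the cone phosphodiesterase subunits and the cone exchanger, were lower. PDE6C and PDE6H were cone markers of the gate, so their values are a description. SLC24A1, the exchanger known from rods, was higher in S-cones by 2.79 ± 0.286 at 34.9 against 3.94 CPM, and stood at 387 CPM in rods.

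A list of other G protein subunits, arrestins and receptor kinases held 28 genes, of which 26 were named and 6 were at 0. Between ON and OFF BCs, 3 of 14 tested were higher and 5 lower in ON BCs, where 41.8% of all features passed. GNAO1, the alpha subunit known to couple the ON BC glutamate receptor, was higher by 3.06 ± 0.0603 (1907 against 220.1 CPM), whereas the gamma subunit GNG2 was lower by −4.49 ± 0.115 (17.0 against 349 CPM) and the kinase GRK3 by −2.91 ± 0.131. GNAQ (0.18) and GNAS (0.14) were also higher and GNAZ (−1.0), GNB2 (−0.67) and GRK5 (−0.66) lower. Of 11 partners tested in the BCs, 5 were higher in ON BCs (THRB by 2.71, RGS9BP by 0.34, ARL3 and UNC119 by 0.33 each, GNB5 by 0.26) and 4 lower (RCVRN by −0.98, RIC8A by −0.75, RGS9 by −0.55, RORB by −0.12), against the same 41.8% of all features. Of 6 other phototransduction genes, PDE6A (0.34) was higher in ON BCs and PDE6B (−1.43, 8.97 against 24.7 CPM) and OPN1LW (−0.55) lower. PDE6A, PDE6B and OPN1LW were markers of the gate, which could shape what was left of them in BCs, so these differences are a description and no result. Of the list of other subunits and kinases between rods and cones, where 38.0% of all features passed, 3 of 14 tested were higher in rods (GNAO1 by 1.46, GRK3 by 1.30 and GNAZ by 0.98) and 3 lower (GRK5 by −1.98, GNG7 by −1.62 and GNAQ by −0.63). Between S-cones and L-cones, GNG10, represented by the copy named GNG10li1, was higher in S-cones by 2.65 ± 0.453 at 9.16 against 1.32 CPM, and GNAQ was lower by −0.64, of 15 tested, where 16.4% of all features passed.

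The genes most like GNAT1 and GNAT2 across 134 sums of 1 class in 1 retina, among 9415 genes, are given as a description, since these sums share libraries and classes. On the scale of log2 CPM plus 1, GNAT1 was most like PDE6B (Pearson r = 0.900), SLC24A1 (0.889) and NR2E3 (0.867), and GNAT2 was most like OPN1SW (0.815), MORC1 (0.804) and MMP20 (0.795). PDE6B, NR2E3 and OPN1SW had helped to define the classes.

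Across the stages, none of the 7 genes passed the test in any of the 4 classes tested (cones, rods, BCs and ACs). In rods, GNAT1 stood at 331, 229.6, 277, 129.6 and 225 CPM in Infancy 1 to 5, at 158, 289, 257, 159.7 and 313 CPM in Mature 1 to 5, and at 223, 324, 115 and 59.8 CPM in Senile 2 to 5. SAG in rods stood at 4481, 4092, 4796, 2885 and 5567 CPM in the Infancy retinas, at 4192, 4139, 4162, 3166 and 4180.3 CPM in the Mature retinas, and at 3895, 5027, 7560.4 and 3782 CPM in Senile 2 to 5. GNB1 in rods stood at 587, 621, 612, 803 and 1159 CPM in the Infancy retinas, at 791, 933, 1252, 853 and 1287 CPM in the Mature retinas, and at 912, 919, 804 and 1065 CPM in Senile 2 to 5. For all 3 genes the stages overlapped.

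In cones, GNAT2 stood at 750.4, 979, 819, 1482 and 1198 CPM in Infancy 1 to 5, at 1085, 982, 1017, 1429 and 1207 CPM in Mature 1 to 5, and at 955, 601, 1318, 718 and 1361 CPM in Senile 1 to 5. ARR3 stood at 5201, 5183, 5559, 5553 and 6159.6 CPM in the Infancy retinas, at 5135, 5316, 6150.1, 5941 and 7516 CPM in the Mature retinas, and at 5596, 4601, 4448, 5036 and 5353 CPM in the Senile retinas. GRK7 stood at 379, 620, 398, 413 and 565 CPM in the Infancy retinas, at 456, 485, 522, 373 and 499 CPM in the Mature retinas, and at 416, 319, 387, 471 and 368 CPM in the Senile retinas. The stages overlapped for each of the 3 genes.

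None of the 6 genes tested in cones passed an adjusted p of 0.05 by edgeR, with the label of the Cell Ranger version as a covariate, between senile and infant retinas (2.05% of 15204 features passed), mature and infant retinas (1.49%) or senile and mature retinas (0.00658%). At an unadjusted p under 0.05 there were 2, 0 and 2 genes, and 1666, 1719 and 1391 of the 15204 features. The 2 genes were ARR3 and GRK7 both times. ARR3 in senile cones had a log2 difference of −0.26 ± 0.102 from infancy (edgeR adjusted p = 0.343) and −0.32 ± 0.101 from the mature stage (0.398), and GRK7 of −0.38 ± 0.154 (0.360) and −0.32 ± 0.152 (0.544). Within the retinas labelled Cell Ranger 5.0.1 the log2 ratio of senile to infant means was −0.06 for ARR3 and −0.34 for GRK7, and within those labelled 7.0.1 it was −0.24 and −0.26. The ratio of senile to mature means was −0.04 and −0.36 within the label 5.0.1, and −0.40 and −0.19 within 7.0.1. DESeq2 called none of the 6 in these comparisons either, whereas without a filter on low counts ARR3 passed between senile and mature cones (−0.37, edgeR adjusted p = 0.00492, with 0.00492 to 0.821 over the alternatives).

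In rods, 6 genes were tested (GNAT2 had too few counts), and none passed between senile and infant retinas (1.61% of 2477 features passed), mature and infant retinas (0.565%) or senile and mature retinas (0.00%, with 199 of 2477 features at an unadjusted p under 0.05). At an unadjusted p under 0.05 there were 1, 0 and 1 genes by edgeR, and 264, 247 and 199 of the 2477 features. The gene was ARR3 both times, with log2 differences of 1.51 and 1.08 (edgeR adjusted p = 0.171 and 0.606), and DESeq2 called none. The senile minus infant difference of ARR3 ran from 0.54 to 1.92 over the alternatives. The 95% interval of the senile minus infant difference ran from −0.32 to 0.56 for SAG and from −0.31 to 0.46 for GNB1 on the log2 scale, whereas for GNAT1, GNGT1 and GRK7, with fewer counts, it was wider, with point values of −0.53, −0.79 and −0.78. A change of GNAT1 or GNGT1 in rods with age was therefore not detectable at this depth rather than shown to be absent.

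**Figure D5:**
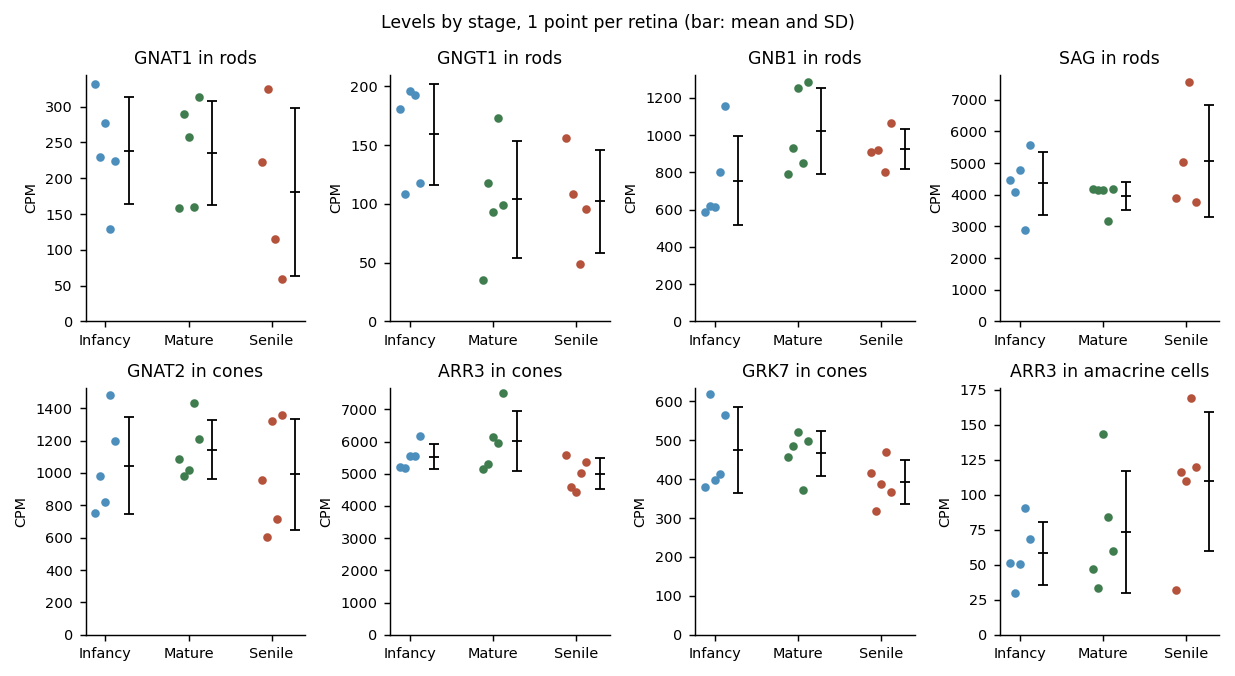
CPM of rod genes in rods, of cone genes in cones and of ARR3 in ACs by stage, with 1 point per retina and the mean and SD beside it, on axes that start at 0. The stages overlap in every panel.

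In BCs and ACs, ARR3 was followed across the stages as well. In BCs it stood at 70.0 ± 23.0, 87.6 ± 38.5 and 156 ± 62.1 CPM in the Infancy, Mature and Senile retinas (n = 5 each), and in ACs at 58.3 ± 22.6, 73.4 ± 43.5 and 109.6 ± 49.4 CPM. In BCs none of the 6 genes passed in edgeR between senile and infant retinas (1.49% of 15716 features passed), mature and infant retinas (1.02%) or senile and mature retinas (0.102%). At an unadjusted p under 0.05 there were 1, 0 and 2 genes, and 1568, 2021 and 1631 of the 15716 features. The genes were ARR3 in both and SAG in the last, and DESeq2 called 1, ARR3, between senile and infant BCs. SAG in BCs stood at 15.3 ± 3.84, 13.8 ± 4.29 and 25.1 ± 11.4 CPM by stage (senile minus mature 0.75, edgeR adjusted p = 0.432), and its log2 ratio of senile to mature means was 0.30 within the retinas labelled 5.0.1 and 1.10 within those labelled 7.0.1. In ACs SAG stood at 11.3, 10.6 and 18.7 CPM, with ratios of 0.084 and 1.06. Between senile and infant BCs, ARR3 also passed in edgeR without Senile 1 (1.13, edgeR adjusted p = 0.0305, with 3.95e-05 to 0.462 over the alternatives). In ACs none passed either (1.19%, 0.657% and 0.00% of 18262 features). At an unadjusted p under 0.05 there were 0 of the 6 genes each time, and 1450, 2400 and 1796 of the features. For ARR3 the senile minus infant difference was 0.93 in BCs (edgeR adjusted p = 0.142) and 0.62 in ACs (0.699). The cone markers moved along with it. In BCs they summed to 37.6 to 101 CPM in infancy and 64.0 to 249.9 CPM in the senile stage, and in ACs to 28.2 to 72.5 CPM and 33.5 to 147 CPM, and their part in the result was not tested.

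The difference between stages was itself compared between rods and cones. The senile minus infant change of ARR3 was larger in rods than in cones by 1.64 ± 0.310 on the log2 scale (edgeR adjusted p = 1.09e-04), 1 of 7 genes, where 0.496% of 12896 features passed (0.186% higher in rods) and the median of all features was −0.25. Rods held 65.5 ± 37.3, 97.9 ± 50.1 and 224 ± 157 CPM of ARR3 in the Infancy, Mature and Senile retinas, and cones 5531 ± 396, 6012 ± 941 and 5007 ± 486 CPM. The senile rod values were 289, 54.1, 410.0 and 144 CPM in Senile 2 to 5, from 13, 2, 25 and 12 UMIs, so both low and high retinas occurred within the stage. BCs and ACs, near whose level ARR3 stood in rods under this gate, also had higher means in the senile stage, though no difference passed in the edgeR test. PDE6H, a cone phosphodiesterase subunit and a cone marker of the gate, was the single other gene of the 3 lists to pass, at 1.63 ± 0.381 (0.00680), and its levels in ACs were 29.4, 39.5 and 72.2 CPM by stage. The call for ARR3 was lost without Senile 4 (1.17, edgeR adjusted p = 0.209), with DESeq2 (1.83, adjusted p = 0.144) and when nuclei with markers of a second class were kept (0.56, edgeR adjusted p = 0.867). It was also lost with classes from clusters (0.74, edgeR adjusted p = 0.806), without the retina as a block (1.72, 0.206) and with counts thinned to equal totals, an alternative chosen after seeing the data (1.67, 0.120). Over 22 alternatives the value ran from 0.56 to 2.03 and its adjusted p from 5.71e-07 to 0.867.

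Of the 3 lists of related genes, GRK5, a kinase of G protein-coupled receptors in general, was the only gene that passed in any of the 12 comparisons between stages by edgeR, 1 of 11 partners, 16 paralogs and 10 other genes tested in senile against infant cones, where 2.05% of all features passed. It fell in senile against infant cones, from 26.4 ± 4.05 to 16.4 ± 4.00 CPM (log2 difference −0.73 ± 0.180, edgeR adjusted p = 0.0457).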

How the data were processed

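Nuclei of 15 retinas, 5 per stage, were profiled on the 10x Genomics platform. The authors aligned reads with Cell Ranger to the TS genome TS_3.0 and deposited filtered matrices of raw UMI counts per feature and barcode, not normalised and with replicates kept apart. The labels name version 5.0.1 for 7 retinas and 7.0.1 for 8, where the file headers name 6.1.2 and 7.0.1, and both occurred in every stage. Whether introns were counted is not given in the sources used here. Nuclei with over 200 and under 6000 genes and under 5% mitochondrial UMIs were kept. Each was given the class whose marker profile led by 4 or more in log-likelihood, unless a mixture of 2 classes led by over 3 (no doublet caller was run). Nuclei with at least 1 OPN1SW UMI and no OPN1LW, or at least 2 and more than OPN1LW, were S-cones. Nuclei with at least 2 UMIs of ISL1, GRM6 and TRPM1 and at most 2 of GRIK1 were ON BCs, and those with at least 10 of GRIK1 and at most 1 of the former OFF BCs. Counts were summed per retina and class with at least 10 nuclei and tested in edgeR 4.0.16 (TMM, filterByExpr, quasi-likelihood, R 4.3.3), 2-sided, with Benjamini-Hochberg adjustment over all features. The retina was the block within retinas and the Cell Ranger label a covariate between stages. Fitted folds are relative to TMM-scaled totals and can differ from a ratio of CPM means. The sex of the animals is not in the labels and was no covariate. DESeq2 1.42.0, leave-one-out fits, a stricter gate (lead of 10), Leiden clusters (igraph 0.11.9), no filter on low counts and the mean share per nucleus were alternatives. The scripts (Python 3.11.15, scipy 1.17.1) were tested on simulated data. The named genes were all 10 symbols and the genes of 3 lists (partners, paralogs, other phototransduction genes) that passed an adjusted p of 0.05. To these came 4 markers of the study kept out of the gate. The 3 genes most like GNAT1 and GNAT2 on log2 CPM + 1, among genes with a class mean of at least 10 CPM, were also named. The genes and lists were chosen with earlier results of these data known.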

Additional observations from a re-analysis of the deposited data

Results flagged for a closer look

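In 48 groups of 4 or 5 retinas (1 gene in 1 class and stage), the highest or lowest retina was compared with the others by Dixon's criterion, which chance meets in about 1 of 20 groups, and 5 groups met it. SAG in rods of Mature 4 was 3166 CPM, below the 4139 to 4192 CPM of the other Mature retinas. SAG in S-cones of Senile 4 was 5244 CPM, above 2175 to 3031 CPM, and SAG in L-cones of Senile 2 was 227 CPM, above 48.7 to 90.2 CPM. GRK7 in rods of Infancy 2 was 378 CPM, above 142 to 173 CPM, and in rods of Senile 4 it was 229.6 CPM, above 66.8 to 83.8 CPM in the other 3 Senile retinas with rods. These Senile values rest on 14 UMIs in Senile 4 and on 3, 3 and 7 UMIs in Senile 2, 3 and 5. The senile minus infant change of ARR3 differed between rods and cones by 1.64 on the log2 scale, in the edgeR test of the difference itself. This call was lost under 6 alternatives, with a value down to 0.56 (edgeR adjusted p = 0.867).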

How the results depend on the processing

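Of the counts of genes called, those for rods against cones (7) and S-cones against L-cones (4) moved by less than 1.5 times under every alternative tried, and no log2 difference of the 7 genes that passed the test changed sign under them. Differences between stages that did not pass could differ in sign between the Cell Ranger labels, such as GNAT1 in rods between mature and infant retinas (log2 ratio of means −0.32 and 0.46). Between ON and OFF BCs, 6 genes in place of 2 passed when nuclei with markers of a second class were kept, and 2 to 3 passed with 1 retina left out. Between stages, the count was 1 in place of 0, ARR3 each time, in senile against mature cones and senile against mature BCs with no filter on low counts, and in senile against infant BCs with DESeq2, with no filter, with nuclei of a second class kept and without Senile replicate 1 (0 to 1 over the retinas left out). The rod minus cone difference of the senile minus infant change, 1 gene (ARR3), fell to 0 with DESeq2, with nuclei of a second class kept (0.56, adjusted p = 0.867), with classes from clusters (0.74, 0.806), with no replicate block for the retina (1.72, 0.206), with counts thinned to equal totals (1.67, 0.120), and without Senile replicate 4 (0 to 1 over the retinas left out, with values of 1.17 to 2.03). The cause was not tested. Thinning, and S-cones with no rod marker UMI, were chosen after seeing the data. SAG in S-cones minus L-cones ran from 4.71 to 5.18 over its alternatives. Levels in rods moved with the gate. With nuclei of a second class kept and with clusters, ARR3 in rods was 297 and 529 CPM and GNAT2 in rods 56.5 and 101 CPM, and with clusters SAG was 3132, GNB1 665 and GNAT1 160.2 CPM. Replicate numbers are shared by the stages, but same-numbered retinas come from different animals. Their deviations correlated over 0.1 in 13 of 15 pairs each in cones, BCs and ACs (−0.194 to 0.650 in cones). Apart from number 3, same-numbered retinas also share a Cell Ranger label, and every pair under 0.1 was of number 3. The part of the label in these correlations was not tested. Of 30 best matches in each class, 9, 7 and 8 were with the same number. With the replicate block, 0 genes passed in all 12 stage comparisons, as without it. Few UMIs lie behind GNGT1 outside rods and GNAT1 in S-cones.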

Other observations

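In S-cones, chosen after its values were seen and not tested, GNB1 stood at 39.1 ± 6.73 CPM in 5 Infancy retinas, 28.2 ± 8.44 CPM in 4 Mature retinas and 62.1 ± 13.8 CPM in 5 Senile retinas. The Senile range of 45.2 to 75.3 CPM did not overlap the Mature range of 20.0 to 35.8 CPM and overlapped the Infancy range of 31.4 to 49.4 CPM. These values rest on 89 UMIs in all, with as few as 2 each in Infancy 3 and Mature 2. Infancy 1, Infancy 2, Mature 4 and Senile 4 held 3 each. The single Infancy value above the lowest Senile value was the 49.4 CPM of Infancy 3, from 2 UMIs. How often the ranges of other features part in this way was not determined, so the gap is a description. In L-cones the corresponding means were 41.7, 34.9 and 34.6 CPM.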
